A study of Mus musculus with 4 samples.

Results

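Chaperones fold proteins and hold damaged ones, and the genes described here make the heat shock chaperones of the cytosol, the small heat shock proteins of muscle, the chaperones of mitochondria and endoplasmic reticulum, and the transcription factors of the unfolded protein response. The 31 genes were taken from a list by gene symbol, without regard to their values, and 28 of them had a probe set that the platform annotation ties to that symbol alone, among 8251 genes named on the array. Hsf1, Hsp90ab1 and Hspb7 had none and were not analysed here. Probe sets with a low mean signal were not tested, which left 26 of the 28 genes, with Hspb1 and Calr untested. A probe set is a group of array probes for the same transcript, and its signal is a linear intensity in arbitrary units.

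Total RNA of whole mouse heart was compared between wild-type and heterozygous mice, both adult males of 8 to 16 weeks on a 129/Black Swiss background. The gene affected in the heterozygous mice is not named here. Each genotype was measured in 2 samples, and each sample was RNA pooled from 5 hearts, so the spread between samples is a spread between pools and not between animals. The labels do not say that the pools of a genotype came from separate animals, so p-values measure only the spread between these samples. The question asked of the pools is whether chaperone transcripts of the heart differ with genotype.

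In the cytosol, HSP70 proteins bind unfolded chains with the help of J-domain proteins such as Dnajb1, which deliver clients, and of exchange factors such as Hsph1 and Bag3, which release them. The heat shock factor HSF1 drives the inducible members by binding heat shock elements, alternating repeats of GAA and TTC. In the endoplasmic reticulum, unfolded proteins activate the sensors IRE1, PERK and ATF6, which act through the transcription factors XBP1, ATF4 and ATF6 to raise reticulum chaperones and disposal genes. Cardiac muscle also holds small heat shock proteins, which protect the contractile filaments.

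Promoter stretches that hold heat shock or reticulum stress elements are printed here, chosen because they match those motifs, to show the letters of each element. RefSeq windows (build GRCm38.p6) of 300 bases, 250 of them before a transcription start, were found for 25 of the 31 genes. The heat shock element was searched on both strands as adjoining units, GAANNTTC or TTCNNGAA, and as 3 alternating units in a row, each of which overlaps matches of the shorter form. The shorter form stood in the windows of 9 of the 25 genes (36%) against 17% of all 27025 genes with a window, and the form with 3 units in those of Hspd1, Hspe1 and Hsph1 (12%) against 0.662%. The reticulum stress element, a CCAAT box and CCACG with 9 bases of any kind between them, stood in those of Hspa5, Hsp90b1, Canx, Pdia6 and Calr (20%) against 0.137%. The letters TGACGTGG, of the XBP1 or ATF6 element, stood in none of the 25 and in 0.714% of all genes, and TGATGNAAN, of the ATF4 composite element, in that of Herpud1 alone (4%) and in 4.5% of all. A match is a description of letters and not a shown site. The capitals mark heat shock units in the first 2 sequences and the reticulum stress element in the others, all on the gene's own strand and all before the start.
Hspe1, chr1:55088039-55088096, plus strand, 89 to 72 bases before its start: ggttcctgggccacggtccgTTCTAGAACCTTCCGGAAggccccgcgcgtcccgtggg
Hspa1a, chr17:34972233-34972280, minus strand, 104 to 97 bases before its start: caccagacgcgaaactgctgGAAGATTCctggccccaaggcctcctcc
Hspa5, chr2:34772005-34772063, plus strand, 65 to 47 bases before its start: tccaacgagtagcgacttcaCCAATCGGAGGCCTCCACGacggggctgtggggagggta
Hsp90b1, chr10:86705513-86705676, minus strand, 2 elements from 212 to 89 bases before its start, the one nearer to it reversed: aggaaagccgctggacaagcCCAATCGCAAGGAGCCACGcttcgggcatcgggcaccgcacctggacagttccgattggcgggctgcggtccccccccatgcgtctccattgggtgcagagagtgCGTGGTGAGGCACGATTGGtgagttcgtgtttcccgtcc
Canx, chr11:50325780-50325838, minus strand, 145 to 127 bases before its start: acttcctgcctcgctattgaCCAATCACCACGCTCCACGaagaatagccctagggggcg
Pdia6, chr12:17266471-17266529, plus strand, 98 to 80 bases before its start: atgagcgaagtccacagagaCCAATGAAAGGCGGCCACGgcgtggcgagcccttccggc
Calr, chr8:84847055-84847113, minus strand, 162 to 144 bases before its start, reversed: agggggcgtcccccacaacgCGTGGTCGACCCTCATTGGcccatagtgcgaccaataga

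Hspa1b carries the same 48 bases as Hspa1a at chr17:34959315-34959362, and the 250 bases before the starts of the 2 genes differ at 3 positions. The units printed for Hspe1 also lie before an Hspd1 start that runs the other way, 215 bases from that of Hspe1, so the mitochondrial partners share them.

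Of the 26 tested genes, 12 differed between the genotypes (limma, adjusted p under 0.05 over all 7453 tested probe sets), 8 higher and 4 lower in the heterozygous pools. Over all 5692 tested genes, counted the same way by the brightest probe set of each, 39.0% differed, 19.5% higher and 19.5% lower (38.3%, 17.9% and 20.4% when probe sets are counted), so the share called is near that of the array as a whole. Wild-type and heterozygous pools did not overlap for 21 of the 26, 14 of them higher and 7 lower, where 70.7% of all tested genes had pools that did not overlap. The median log2 change was 0.33 over the 26 genes and 0.02 over all tested genes, and the extremes were -0.84 for Dnajb1 and 1.02 for Hspa1a. Small heat shock genes, Hspa9, Herpud1, Hsp90b1 and the inducible HSP70 genes were higher, and Dnajb1, Xbp1 and the disulfide isomerases Pdia3 and Pdia4 were lower. All 8 increases depend on the scale. With arrays centred on sarcomere genes in place of the deposited scale, none of the 26 was called higher and 11 were called lower, while under a common median, quantile normalization and cyclic loess 12, 9 and 8 were called higher. Over all 7453 probe sets the median log2 change was 0.00 as deposited, 0.18, 0.10 and 0.02 under these scalings in turn, and -0.665 when centred on sarcomere genes. In bulk samples such as these, fewer cells of a type and less RNA per cell cannot be told apart.

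**Figure D1:**
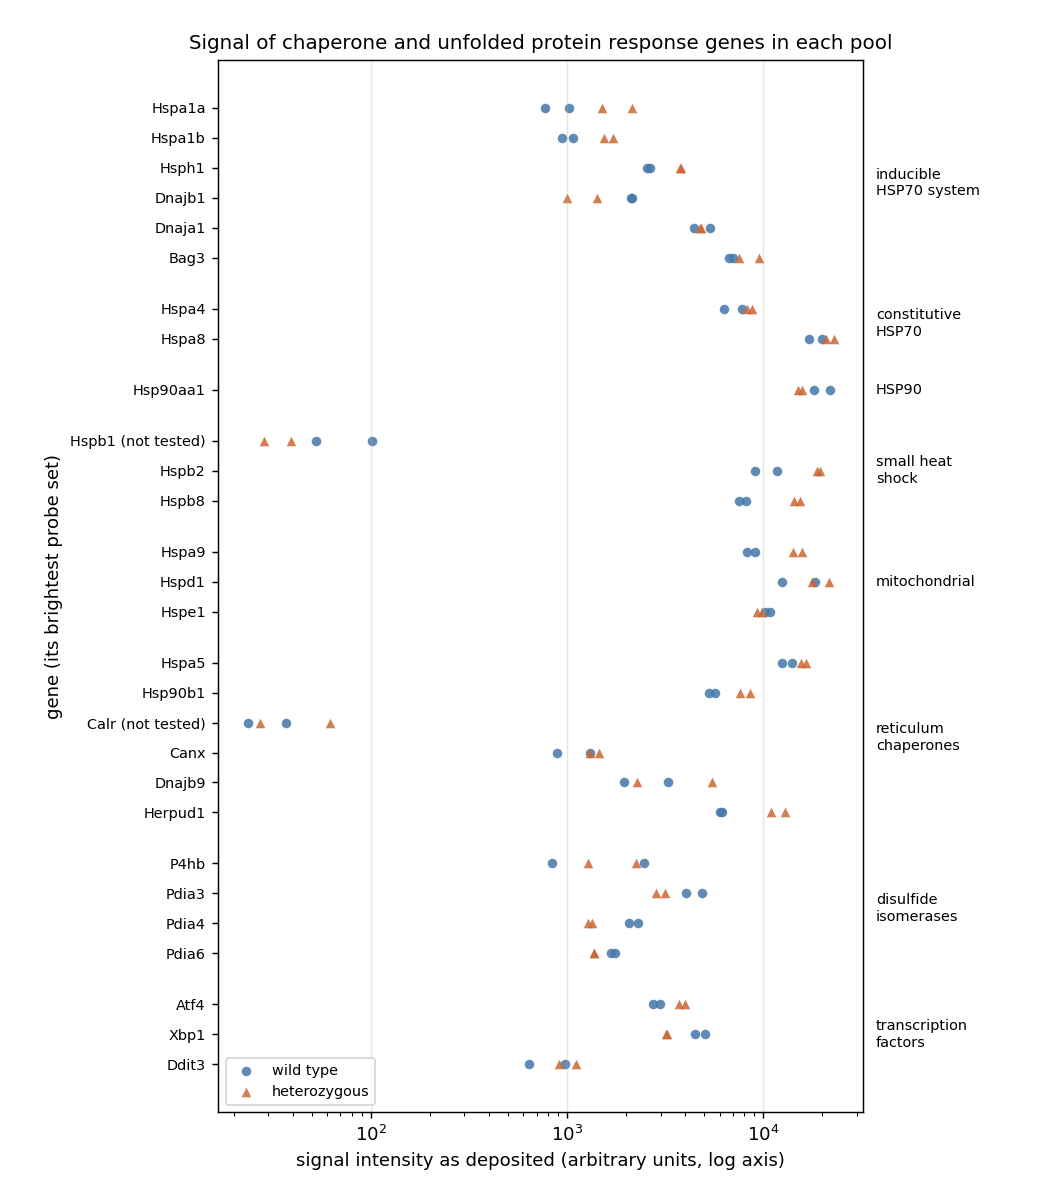
Signal of each gene's brightest probe set (horizontal axis, arbitrary units on a log scale) in the 2 wild-type pools (circles) and the 2 heterozygous pools (triangles), with genes grouped by role. Hspb2, Hspb8, Hspa9 and Herpud1 have both triangles to the right of both circles, Dnajb1, Pdia3, Pdia4 and Xbp1 have both to the left, and the untested Hspb1 and Calr lie at 101 or below.

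The signals of cell type markers moved with genotype, and these values stand beside every result that follows. All 22 tested markers of lymphocyte and thymus were lower in the heterozygous pools, with a summed signal of 176512 to 178129 in the wild-type pools and 25332 to 25573 in the heterozygous ones, and all 19 tested genes of dividing cells were lower (101856 to 108406 against 18773 to 18858). Their defining markers were not at 0 in the heterozygous pools: Cd3d read 1066 and 862 against 9993 and 12569, Cd8a 1364 and 1351 against 14408 and 16502, and Rag1 3183 and 3251 against 25556 and 28828. Mki67 read 689 and 566 against 7000 and 6199. Among the lymphocyte and thymus markers, Rag2, Ptcra and Il7r had heterozygous means of 135.5, 100 and 261. Among the genes of dividing cells, Top2a, Aurka and Aurkb had heterozygous means of 317, 169 and 233. All these means lay below 348.95, the lowest mean signal tested, so these genes passed the filter only through their wild-type signal. Of 19 tested cardiomyocyte markers 15 were higher and none was lower on the deposited scale, with a median log2 change of 0.65 and a summed signal of 655858 to 721359 in wild type and 1046360 to 1063530 in heterozygous pools. Myh6, Tnnt2 and Mb had log2 changes of 0.40, 0.61 and 0.60, which turned to -0.27, -0.054 and -0.062 with arrays centred on sarcomere genes. That centring sets the mean log2 change of the genes used for it to 0. Values near 0 for sarcomere genes such as Myh6 and Tnnt2 are therefore no separate result. On the deposited scale endothelial markers were higher in 8 of 9 cases and lung epithelial ones in 3 of 3. The endothelial marker Nos3 had a wild-type mean of 161, below 348.95, so it passed the filter only through its heterozygous signal. Fast skeletal muscle markers were lower in 6 of 11 cases and higher in 1. Actn3, among those lower, had a heterozygous mean of 173 and passed the filter only through its wild-type signal. On the same scale smooth muscle markers were higher in 1 of 6 cases, and macrophage markers higher in 1 and lower in 1 of 8. Erythroid markers were higher in 3 of 4 and fat markers lower in 1 of 5. Beside these counts, 19.5% of all tested genes were higher and 19.5% lower. The part of these shifts in the results was not tested.

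Among the small heat shock genes of muscle both tested members rose, in every scaling except the one centred on sarcomere genes. On the deposited scale 19.5% of all tested genes rose. Hspb2 makes a small heat shock protein of heart and skeletal muscle that binds the myotonic dystrophy kinase. On its brighter probe set its signal was 11811 and 9081 in wild type and 19420.2 and 18768 in heterozygous pools. Both heterozygous pools lay above both wild-type pools, and the log2 change was 0.88 (SE 0.16, limma adjusted p = 0.00261), a 1.84-fold increase. The other probe set of Hspb2, made from the same clone sequence, read 2527 and 2138 against 5341 and 4388 (log2 change 1.06, limma adjusted p = 0.00168). Hspb8, the partner of Bag3 in the disposal of damaged filament proteins, read 8138 and 7569 against 14347 and 15487, a 1.90-fold increase (log2 change 0.93, SE 0.13, limma adjusted p = 9.94e-04). Its dimmer probe set gave a log2 change of 0.86 that did not pass (limma adjusted p = 0.0820), with signals of 268, 253, 441 and 504. The wild-type mean of this dimmer probe set, 261, lay below 348.95, the lowest mean signal tested. It passed the filter only through its heterozygous signal. Cryab, the alpha-B crystallin gene that neighbours Hspb2 in the genome, belongs to the further genes of the pathway and rose 1.81-fold on the deposited scale, from 5455 and 6500.5 to 9988 and 11668. That probe set, like the dimmer one of Hspb8, carries a suffix which the maker of the array gives to those that can detect related sequences. The other probe set of Cryab read 138 and 22 against 83.6 and 214.6, with overlapping pools, and was not tested. Hspb1, a small heat shock protein of many tissues, was near the lower end of the array in all pools, at 52.5 and 101 in wild type and 39.4 and 28.5 in heterozygous pools, and was not tested. Centred on sarcomere genes, Hspb2 and Hspb8 had log2 changes of 0.22 and 0.26 and were not called. Cryab is itself among the 21 genes used for that centring.

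In the inducible HSP70 system 3 of 6 tested members rose and 1 fell on the deposited scale. Of all tested genes 19.5% rose and 19.5% fell. Hspa1a, the stress-inducible HSP70, read 772 and 1020.4 in wild type and 1505 and 2157 in heterozygous pools, a 2.03-fold increase (log2 change 1.02, SE 0.24, limma adjusted p = 0.00912). Its near-identical copy Hspa1b read 945 and 1077 against 1713 and 1547, a 1.61-fold increase (log2 change 0.69, SE 0.18, limma adjusted p = 0.0173). The proteins of these 2 genes are almost the same and probes for one can detect the other, so their signals are not separate evidence. Hsph1, the HSP110 exchange factor, rose 1.46-fold, from 2644 and 2548 to 3813 and 3761 (log2 change 0.54, SE 0.15, limma adjusted p = 0.0193). For all 3, each heterozygous pool lay above each wild-type pool.

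Dnajb1, the J-domain protein that activates HSP70 and is itself a heat shock gene, fell 1.79-fold. Its signals were 2146.5 and 2126 in wild type against 1431 and 999.5 (log2 change -0.84, SE 0.21, limma adjusted p = 0.0124). Dnaja1, a J-domain protein of another class, read 5352 and 4447 against 4798 and 4741, and both heterozygous pools lay between the wild-type pools (log2 change -0.03, limma adjusted p = 0.888). Bag3, which links HSP70 to the small heat shock proteins, had probe sets that disagreed. The brighter one read 6665 and 7056 against 7559 and 9481 (log2 change 0.30, limma adjusted p = 0.157), and carries the suffix that the maker of the array gives to probe sets which can detect related sequences. The other rose 2.68-fold, from 3627 and 3595 to 9894 and 9456 (log2 change 1.42, SE 0.14, limma adjusted p = 1.25e-04), which is a larger change than that of any gene counted by its brightest probe set among the 26. This probe set kept its call with arrays centred on sarcomere genes (0.76), and averaging both gave a log2 change of 0.86 that passed.

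Calls in this system were not all kept when a pool was left out. That leaves 1 pool in its genotype, and fewer probe sets then passed over the whole array, as the closing section counts. Without heterozygous pool 2 the log2 changes were 0.76 for Hspa1a, 0.76 for Hspa1b, 0.55 for Hsph1 and -0.58 for Dnajb1. With all pools they were 1.02, 0.69, 0.54 and -0.84. Hspa1b was at 0.60 without wild-type pool 1 and at 0.62 without heterozygous pool 1. Hsph1 was at 0.52 without wild-type pool 2 and at 0.54 without heterozygous pool 1. Of 14 tested immediate early genes, which can respond to the handling of tissue, 8 were called in the same pools, 3 higher and 5 lower, beside 39.0% of all tested genes. All 8 are named here on the deposited scale and, with Dusp1 and apart from Fos, were chosen after their values were seen. Jun rose 2.95-fold (466 and 579 against 1645 and 1431), Klf4 2.54-fold and Ier3 1.86-fold. Myc fell 4.62-fold (690.3 and 805 against 119.7 and 217), Btg1 3.24-fold, Fos 1.68-fold, Ier2 1.67-fold and Egr1 1.53-fold. Both heterozygous values of Myc lay below 348.95, the lowest mean signal tested, so it passed the filter only through its wild-type signal. The 14 genes had a summed signal of 36759 and 41623 in wild type and 35869 and 43667 in heterozygous pools. Of this Dusp1, not called, gave 5369 and 8514.5 against 7093 and 12887. The part of these changes in the heat shock results was not tested.

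Neither the constitutive HSP70 genes of the cytosol nor Hsp90aa1 passed on the deposited scale. Hsp90ab1, the other cytosolic HSP90 of the list, had no probe set. Hspa8, the HSP70 that works in unstressed cells, read 17209 and 20006 in wild-type pools and 20933 and 22956 in heterozygous pools (log2 change 0.24, SE 0.14, limma adjusted p = 0.203), and its value was -0.020 under cyclic loess. Hspa4, an HSP110 relative, was measured by 5 probe sets, of which 4 were tested and none passed, with log2 changes from -0.32 to 0.28 that differed in sign. The brightest read 7768 and 6329 against 8254 and 8731. Hsp90aa1, the inducible HSP90 of the cytosol, read 18075 and 21879 against 15811 and 15086, with no overlap of the pools, and its log2 change of -0.36 (SE 0.14) did not pass (limma adjusted p = 0.0728). It was called lower with quantile normalization (-0.54), with cyclic loess (-0.61), with centring on sarcomere genes (-1.03) and without wild-type pool 1 (-0.50).

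Of the mitochondrial chaperones, Hspa9 rose and the chaperonin pair Hspd1 and Hspe1 did not pass. Hspa9, the matrix HSP70 that pulls imported proteins through the inner membrane, rose 1.73-fold, from 8270.4 and 9089 to 15729.6 and 14260.3 (log2 change 0.79, SE 0.14, limma adjusted p = 0.00242). Both heterozygous pools lay well above both wild-type pools. Hspd1, the matrix chaperonin, read 12446 and 18386 against 17854 and 21721, and the pools overlapped (log2 change 0.38, SE 0.20, limma adjusted p = 0.157). Wild-type pool 1 was the low one, and without wild-type pool 2 the log2 change was 0.66 and passed. Hspe1, which caps the chaperonin and shares with Hspd1 the heat shock units printed above, read 10842 and 10175 against 9351 and 9903 (log2 change -0.13, SE 0.13, limma adjusted p = 0.495; 0.053 under a common median). The signals of Hspd1 and Hspe1 thus lay on different sides of 0 in their log2 changes, and neither passed.

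**Figure D2:**
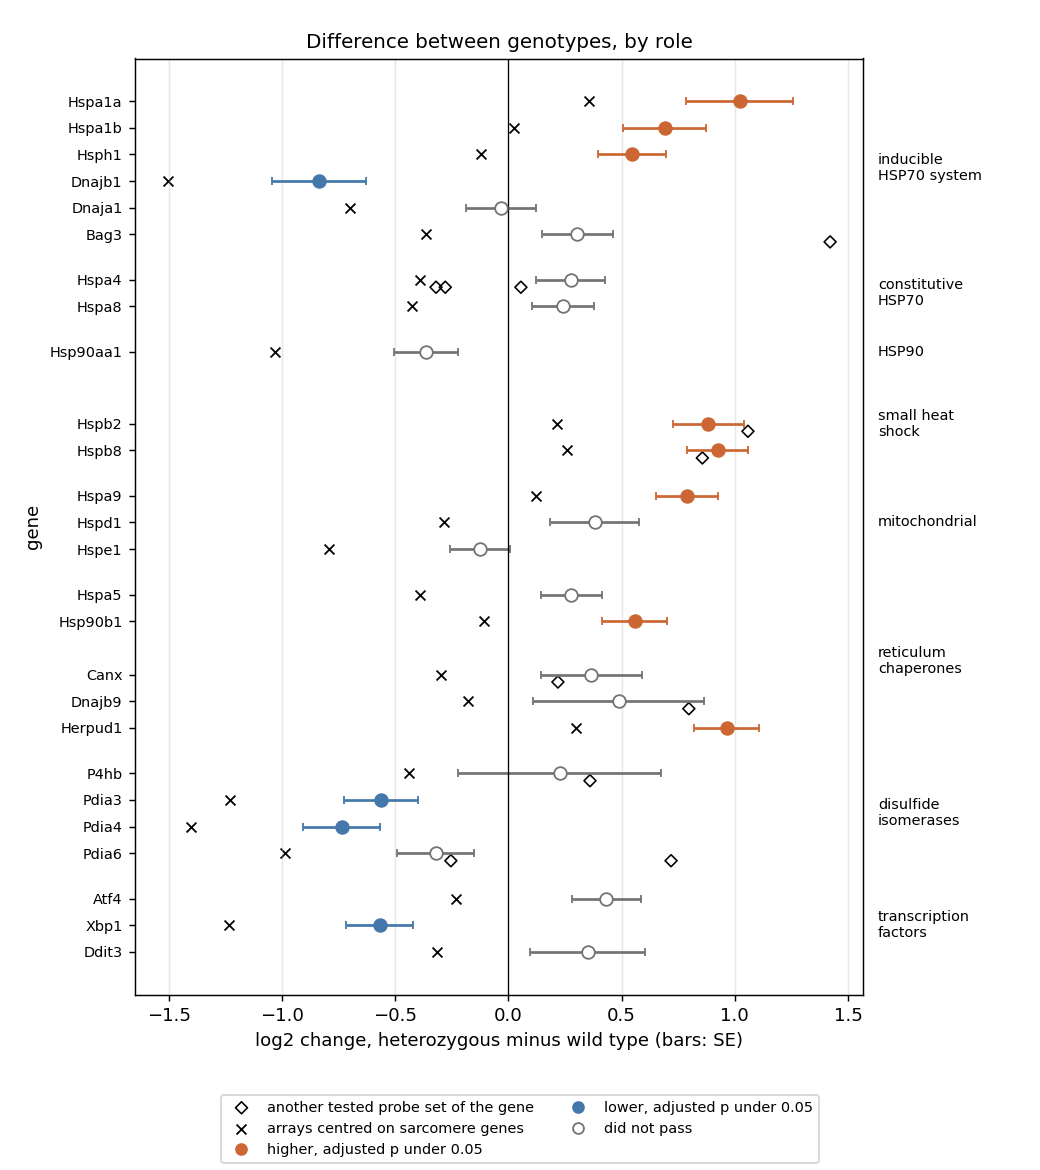
Log2 change, heterozygous minus wild type, of the 26 tested genes by role, with bars of 1 SE. Filled circles passed at adjusted p under 0.05, open circles did not, diamonds are further tested probe sets of the gene, and crosses are the values with arrays centred on sarcomere genes, which lie to the left of every circle and leave Hspa1a, Hspa1b, Hspb2, Hspb8, Hspa9 and Herpud1 above 0.

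Of the reticulum chaperones 2 of 5 tested members rose, and of the disulfide isomerases of the same compartment 2 of 4 fell, beside 19.5% of all tested genes in each direction. All 5 tested chaperones had a log2 change above 0 on the deposited scale (median 0.49), and 3 of the 4 isomerases had one below 0 (median -0.44), with P4hb above it. Of all 5692 tested genes, 2913 had a log2 change above 0. The difference between the chaperones and the isomerases was not tested. Centred on sarcomere genes, Herpud1 alone of the chaperones stayed above 0.

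Herpud1, a membrane protein of reticulum-associated degradation and a target of the unfolded protein response, rose 1.95-fold. Its signals were 6064 and 6169.7 in wild type against 12953 and 10998 (log2 change 0.96, SE 0.14, limma adjusted p = 0.00112). Hsp90b1 (GRP94), the HSP90 of the reticulum, rose 1.47-fold, from 5664 and 5318 to 7622 and 8564 (log2 change 0.56, SE 0.14, limma adjusted p = 0.0146), a call that ended without heterozygous pool 1 (0.64) or pool 2 (0.47). Hspa5 (BiP), the reticulum HSP70 that restrains the sensors, read 12508 and 14038 against 15556 and 16578. Its pools did not overlap, but its log2 change of 0.28 (SE 0.13) did not pass (limma adjusted p = 0.137).

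Canx, the membrane lectin calnexin, read 886 and 1306 against 1315 and 1464 (log2 change 0.37, limma adjusted p = 0.231). Dnajb9, a J-domain partner of BiP, varied widely within genotype on its brighter probe set, with 1959 and 3267 against 5494 and 2289 (log2 change 0.49, SE 0.38, limma adjusted p = 0.344). Without heterozygous pool 1 this value was -0.14. The dimmer probe set read 339 and 377 against 538 and 717 (log2 change 0.80, limma adjusted p = 0.0628). Calr, the soluble lectin calreticulin, read 37.2 and 23.6 against 27.4 and 62, near the floor of 36.25 in all 4 pools, and was not tested. Of the 5 genes whose windows held the reticulum stress element, Hsp90b1 rose, Hspa5, Canx and Pdia6 did not pass and Calr was untested.

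Among the isomerases, which form and shuffle disulfide bonds, Pdia4 fell 1.67-fold, from 2297 and 2084 to 1342 and 1283 (log2 change -0.74, SE 0.17, limma adjusted p = 0.00881). Pdia3, which works with calnexin on glycoproteins, fell 1.48-fold, from 4045 and 4882 to 2857 and 3163 (log2 change -0.56, SE 0.16, limma adjusted p = 0.0243). For both, the pools did not overlap. The call of Pdia3 ended under a common median (-0.38), and also when wild-type pool 2 (-0.43) or a heterozygous pool (-0.49 for pool 1, -0.64 for pool 2) was left out. That of Pdia4 ended without wild-type pool 1 (-0.67) or heterozygous pool 2 (-0.705). Pdia6 had probe sets on both sides of 0: the brightest read 1680 and 1764 against 1379.9 and 1375 (log2 change -0.32, limma adjusted p = 0.164), another gave -0.25, and the dimmest gave 0.72 (limma adjusted p = 0.0623). P4hb, the main isomerase, read 844 and 2478 against 1276 and 2243, with wild-type pools that lay outside the heterozygous ones (log2 change 0.23, SE 0.45, limma adjusted p = 0.725). Without wild-type pool 2 its log2 change was 1.00 and was called higher, and without wild-type pool 1 it was -0.55. The dimmer probe set of P4hb read 334 and 409 against 457 and 493, with no overlap of the pools (log2 change 0.36, limma adjusted p = 0.398). In the same pools all 22 tested lymphocyte and thymus markers fell, with a median log2 change of -2.70. Some of these markers passed the filter only through their wild-type signal. The part of their fall in the decreases was not tested.

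Of the transcription factors, Xbp1, the target of the sensor IRE1 and a factor of secretory cells, fell 1.48-fold. Its signals were 4508.5 and 5056 in wild type against 3212 and 3225 (log2 change -0.57, SE 0.15, limma adjusted p = 0.0162). The array reads the transcript level and does not separate its spliced from its unspliced form. The call ended under a common median (-0.39), and also when wild-type pool 2 (-0.49) or either heterozygous pool (-0.57 for both) was left out. Atf4, translated when PERK is active, read 2978 and 2750.4 against 3727 and 4005. Its pools did not overlap, and its log2 change of 0.43 (SE 0.15) fell just short of passing (limma adjusted p = 0.0505). It passed under a common median (0.61) and quantile normalization (0.45). Ddit3 (CHOP), the factor that turns prolonged stress towards cell death, read 641 and 979.6 against 1114 and 916, with overlapping pools (log2 change 0.35, SE 0.25, limma adjusted p = 0.310).

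**Figure D3:**
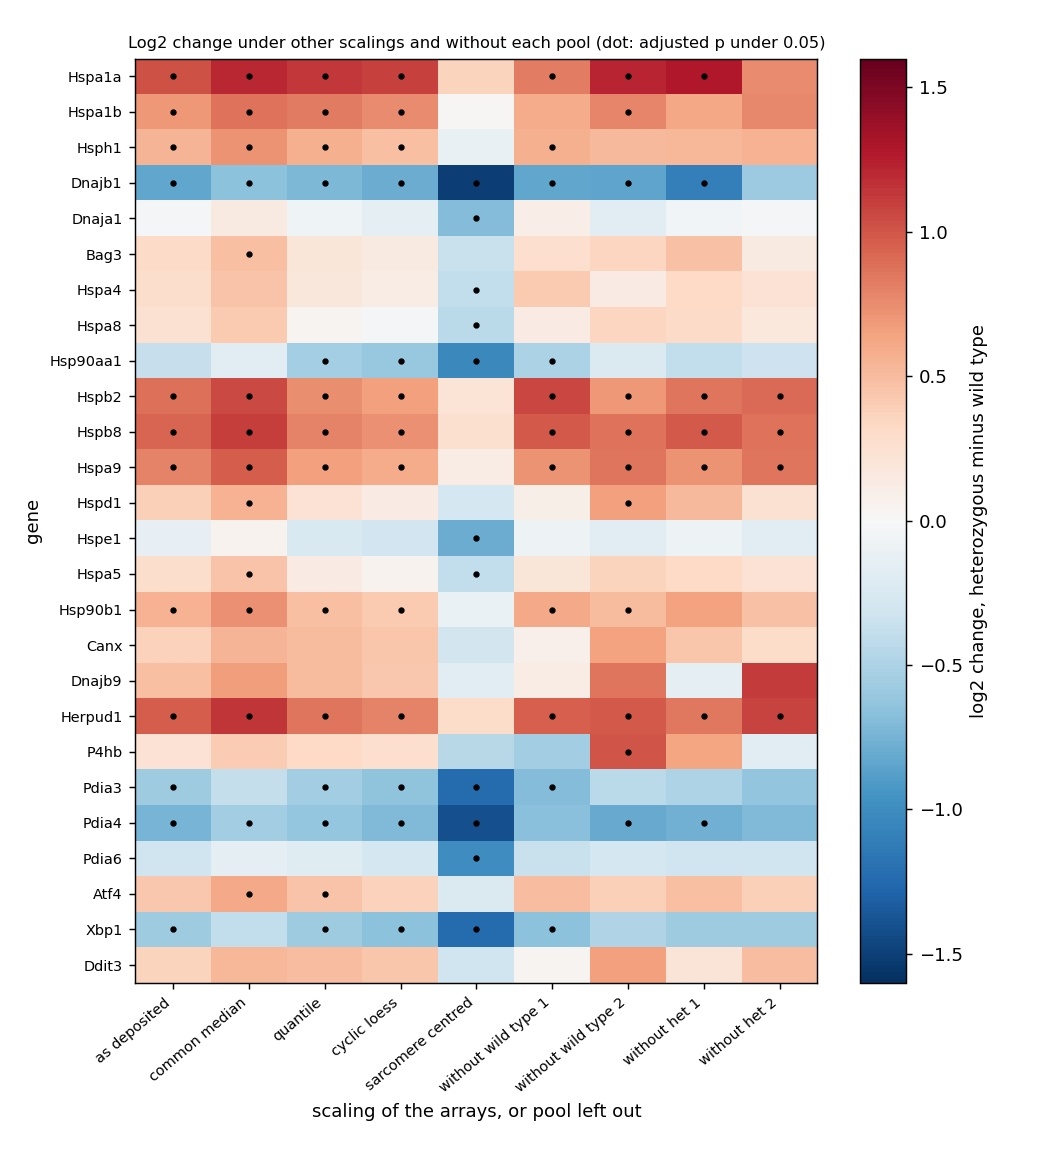
Log2 change of the 26 tested genes (rows, coloured from blue for lower to red for higher in heterozygous pools) on the deposited scale, under 4 other scalings and without each pool in turn (columns), with a dot where adjusted p was under 0.05. Hspb2, Hspb8, Hspa9 and Herpud1 carry a dot in every column but the one centred on sarcomere genes, where their values are 0.12 to 0.30 and dots stand only on values below 0.

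Further genes of the same pathways were counted by list, with 142 genes in all, of which 107 had a probe set and 93 were tested. Of these, 19 rose, 15 fell and 59 did not pass on the deposited scale, a share of 34 called in 93 beside the 39.0% of all tested genes, and their median log2 change was 0.00. Beside each list count below, 19.5% of all tested genes were higher and 19.5% lower. Each gene was counted by its brightest probe set. Vcp, Dnajc3, Cct3 and Htra2 were not called by it. Dimmer probe sets of Vcp, Dnajc3 and Cct3 were called lower, and a dimmer one of Htra2 was called higher. The cytosolic co-chaperones were split, with 7 of 22 higher and 2 lower. Serpinh1, the collagen chaperone HSP47, which resides in the reticulum although it was listed here, rose 2.38-fold (3380.1 and 4534 against 9420 and 9208). Dnajb2 rose 2.07-fold (1648 and 1381 against 3183 and 3058), and Bag2, an inhibitor of the ubiquitin ligase that marks HSP70 clients, rose 1.96-fold (2052 and 2059 against 4202 and 3856). Fkbp5, an HSP90 co-chaperone induced by glucocorticoids, fell 2.47-fold (3803 and 4886 against 1714 and 1773). Dnajb6 fell 1.37-fold by its brighter probe set and did not pass by the other, at a log2 change of 0.38.

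The cytosolic chaperonin TRiC, which folds actin and tubulin, and its helper prefoldin had 4 of 11 tested genes lower and none higher, with a median log2 change of -0.36. Cct8 fell 1.65-fold (4392 and 4227 against 2619 and 2605), Cct6a 1.74-fold (2054.5 and 2861 against 1515 and 1289) and Cct4 1.38-fold (10569.5 and 9439 against 7183 and 7273). The probe set of Cct6a carries the suffix of those that can detect related sequences, and its other probe set was not tested. The other mitochondrial chaperones and proteases had 3 of 11 higher and none lower on the deposited scale. These were Clpp, a matrix protease (1.80-fold, from 2583 and 2486 to 4704 and 4446), Dnaja3, the J-domain partner of Hspa9 (1.69-fold, from 3773 and 3810 to 6226 and 6603), and Lonp1, another matrix protease (1.40-fold). The value of Lonp1 turned to -0.18 with arrays centred on sarcomere genes.

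Further reticulum folding genes showed both directions again, with 3 of 21 higher and 6 lower, beside 19.5% of all tested genes in each. Ostc, of the complex that attaches glycans, fell 1.69-fold, Ero1b, an oxidase that feeds the isomerases, fell 1.92-fold and Creld2, a stress-induced isomerase-like gene, fell 1.59-fold (1586 and 1255 against 833 and 949). The probe set of Ero1b also carries the suffix of those that can detect related sequences. Calu (1.47-fold), a calcium-binding protein, Erp29 (1.62-fold) and Txndc5 (1.46-fold) rose, although the values of Calu and Txndc5 turned to -0.11 and -0.12 with arrays centred on sarcomere genes. In reticulum-associated degradation, 2 of 12 fell and none rose, beside 19.5% of all tested genes in each direction. Vcp did not pass by its brightest probe set (log2 change 0.11), but dimmer ones at -1.50 and -1.28 were called lower. Edem1, which directs misfolded glycoproteins to disposal, fell 5.79-fold, from 898 and 1203 to 140.1 and 229.7 (log2 change -2.53, SE 0.36, limma adjusted p = 8.32e-04). Its heterozygous mean of 184.9 lay below 348.95, the lowest mean signal tested, so it passed the filter only through its wild-type signal. Serp1, which stabilises membrane proteins during stress, fell 1.78-fold (7055 and 8032 against 4329 and 4114).

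Among the sensors and targets of the unfolded protein response, 5 of 14 rose and 1 fell, beside 19.5% of tested genes in each direction. Atf6, the sensor that becomes a transcription factor when cleaved, rose 2.01-fold, from 822 and 720.1 to 1630.2 and 1462 (log2 change 1.00, SE 0.19, limma adjusted p = 0.00384). Cebpb, a partner of CHOP, rose 2.41-fold (3692 and 3012 against 7914 and 8158), and Vldlr, a lipoprotein receptor induced through PERK, rose 2.24-fold (602 and 770.3 against 1736 and 1342). Ppp1r15b, the constitutive subunit of the phosphatase that ends PERK signalling, fell 1.75-fold (2971 and 2091 against 1596 and 1269).

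**Figure D4:**
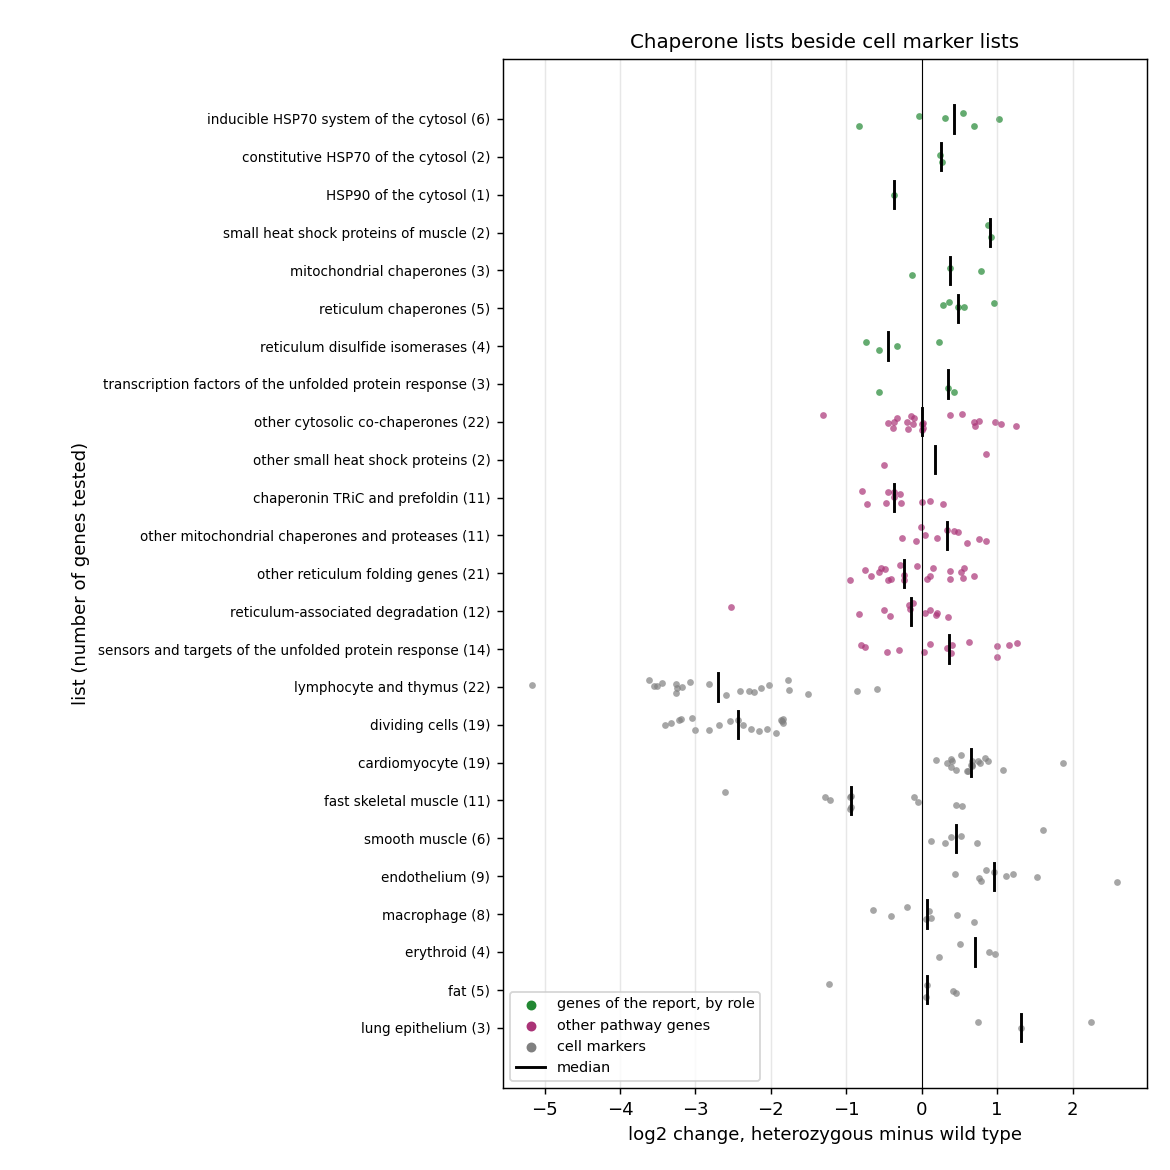
Log2 change, heterozygous minus wild type, of every tested gene (points) by list, with the median as a black line and the number of genes tested in brackets. The groups of the 26 genes lie between -0.44 and 0.90 in their medians, cardiomyocyte markers at 0.65, and the markers of lymphocyte and thymus and of dividing cells at -2.70 and -2.44.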

How the data were processed

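The authors deposited a linear intensity for every probe set, except that heterozygous pool 2 lacked the 66 controls (12422 values against 12488). The sources used here did not name the software behind these intensities. Arrays nearly shared a trimmed mean (1486.5 to 1488.07 without controls), so they were used as deposited. Log2 signals correlated at 0.971 and 0.970 within genotypes and at 0.845 to 0.856 between them. Probe sets with 1 symbol were named (10855; 396 had several and 1237 none).

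Controls (66) were removed, signals under the 10th percentile (36.25) were raised to it, and the dimmest 40% of probe sets were left out, so 7453 of 12422 were tested. This floor touched 16 of 29812 tested values. Each was fitted with limma 3.58.1 in R 4.3.3 (lmFit, eBayes with trend, genotype only), with two-sided Benjamini-Hochberg adjusted p under 0.05. Genes stand by their brightest probe set. Every member is described, and of each further list up to 3 higher and 3 lower genes with the smallest adjusted p, with a few defining markers of each cell type. The fit was tested on simulated data.

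Members, lists, markers and alternatives were chosen with earlier results of these data known. Alternatives were other scalings, floors, filters, moderation, a block for the pool number, leaving out single pools, averaged probe sets and a stricter threshold. An exact permutation test of 2 against 2 cannot go below 0.333. The number of arrays limits precision. Plots used matplotlib 3.10.9.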

Additional observations from a re-analysis of the deposited data

How the results depend on the processing

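Hspb2, Hspb8, Hspa9 and Herpud1 kept their calls under every alternative except centring on sarcomere genes and, for Hspb2, testing all probe sets. Of the 12 calls among the 26 genes, 4 were kept when centred on sarcomere genes, 4 without heterozygous pool 2, 5 with all probe sets tested and 10 to 12 under the other scalings. Centred on sarcomere genes, all probe sets gave 187 higher and 4085 lower, the 26 genes 0 and 11, and the further pathway genes 55 called, 2 higher and 53 lower. There the log2 changes turned to -0.12 for Hsph1, -0.36 for Bag3, -0.39 for Hspa4, -0.43 for Hspa8, -0.29 for Hspd1, -0.39 for Hspa5, -0.11 for Hsp90b1, -0.30 for Canx, -0.18 for Dnajb9, -0.44 for P4hb, -0.23 for Atf4 and -0.32 for Ddit3. Among other genes they turned to -0.18 for Lonp1, -0.11 for Calu, -0.12 for Txndc5, -0.27 for Myh6, -0.054 for Tnnt2, -0.062 for Mb, -0.43 for Hba-a1, -0.60 for Adipoq and -0.54 for C1qa. Dimmer probe sets of Canx, Hspa4 and P4hb turned to -0.45, -0.61 and -0.31. Under a common median Dnaja1 turned to 0.15 and Hspe1 to 0.053, with 2 of the 26 genes and 7 pathway genes lower. Under cyclic loess Hspa8 turned to -0.020, Myh6 to -0.036, Hba-a1 to -0.22 and Adipoq to -0.12, and under quantile normalization the last 2 turned to -0.032 and -0.070. The mean of a gene's probe sets turned Hspa4 to -0.067 and Pdia6 to 0.048. With all probe sets tested, 1206 were called (482 higher, 724 lower), with 5 of the 26 genes (4 and 1) and 10 pathway genes (7 and 3), where dim probe sets entered the fit. Without the trend in eBayes 22 pathway genes were called, 12 higher. At a threshold of 0.01 the counts were 1659 probe sets (691 and 968), 6 of the 26 genes (5 and 1) and 16 pathway genes (11 and 5). The cause of each other change was not tested. Leaving out single pools gave 1707 to 2289 called probe sets (630 to 1125 higher, 1077 to 1164 lower), 4 to 11 of the 26 genes (4 to 9 higher, 0 to 4 lower) and 17 to 27 pathway genes (12 to 15 higher, 5 to 13 lower). Among the 26 genes, 4 were called without heterozygous pool 2 and 7 without heterozygous pool 1. Such omissions turned Dnaja1 (-0.17 to 0.10), Dnajb9 (-0.14 to 1.12), P4hb (-0.55 to 1.00) and a dimmer probe set of Hspa4 (-0.27 to 0.38). The lone pool was then assumed to vary like the other genotype. The labels give pools of the same number nothing else in common. Deviations of wild-type pool 1 and heterozygous pool 1 from their genotype means correlated at 0.158. The pools numbered 2 mirror these deviations and add nothing to that value. With the pool number as a replicate block 3035 probe sets, 14 of the 26 genes (10 higher, 4 lower) and 39 pathway genes were called.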
